A study of Mus musculus with 4 samples.

Results

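The 10 genes described here are receptors and adaptors of selective autophagy and the Atg8 proteins they bind, namely Calcoco1, Calcoco2, Sqstm1, Nbr1, Optn, Tax1bp1, Trp53inp2, Gabarapl1, Gabarapl2 and Map1lc3b. Every probe set (a group of short array probes read as 1 value) whose only gene symbol was one of them was taken, which gave 21 of the 45101 probe sets on the array, for 9 genes. No probe set under the symbol Optn was analysed here. The list was chosen on the signals of these same arrays, with their differences between Suz12KO and WT already known, so the members' values are given as a description, no p-value is given for them, and counts of members past the threshold support nothing.

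Selective autophagy captures chosen cargo for breakdown in the lysosome. Cargo receptors such as Sqstm1, Nbr1, Tax1bp1, Optn and, in human cells, Calcoco2 bind ubiquitin or other marks on the cargo with one region. With another they bind members of the Atg8 family on the growing autophagosome membrane. The Atg8 family comprises the LC3 proteins (Map1lc3a, Map1lc3b) and the GABARAP proteins (Gabarap, Gabarapl1, Gabarapl2). Trp53inp2 is an adaptor that binds Atg8 proteins and takes part in autophagosome formation.

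The samples were mouse embryonic stem cells of 2 genotypes on 4 Affymetrix expression arrays. Suz12KO cells, which lack Suz12, a core subunit of the Polycomb repressive complex PRC2 that methylates histone H3 at lysine 27, were measured on 2 arrays, and WT cells on 2 arrays. RNA of 3 clones per genotype was mixed in equal amounts before labelling. It is not stated in the labels if the 2 arrays came from 1 such pool or from separate ones, so every standard error and p-value below measures the spread between arrays, which may be technical. The parent line of each genotype, its culture and any feeder cells are not given in the labels. Any difference in these between the genotypes cannot be told apart from loss of Suz12 in the values below.

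Signals are in the arbitrary units of the deposited values, where each array had been scaled to the same trimmed mean of 500.003. Array medians were 202 and 191 in Suz12KO and 175 and 171 in WT. The highest of 27 probe sets for bacterial control RNAs, taken here as the level at which a signal cannot be told from background, was 195 and 174 in the Suz12KO arrays and 141 and 191 in the WT arrays. Suz12 itself had signals of 217 and 369 in Suz12KO and 1097 and 1094 in WT (log2 fold change -1.89, SE 0.27, limma adjusted p = 0.0021). With the mean of its probe sets in place of the brightest, its log2 fold change was -1.67 and the adjusted p 0.0602. All 10 stem cell markers were above the control probe sets in every array, with 9 higher and 0 lower in Suz12KO by the limma test. Their summed signal was 127020 and 130770 in Suz12KO and 75875 and 75425 in WT. Dppa5a alone gave 55767 and 56548 of it in Suz12KO and 29439 and 27580 in WT, and Lin28a was not called. The part of the stem cell marker difference in the values below was not tested.

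Calcoco2 (also called NDP52), a receptor known in human cells for delivering invading bacteria and damaged mitochondria to autophagosomes, stood furthest apart among the receptors. Its single probe set, 1429483_at, had signals of 3554 and 3559 in Suz12KO, against 358 and 151 in WT. Both Suz12KO arrays were far above both WT arrays, and the 2 Suz12KO arrays nearly coincided while the WT arrays differed from each other. The means were 3557 ± 3.54 in Suz12KO and 254 ± 147 in WT (SD, n = 2 each). On the scale of log2(signal + 16), used for every fold change here, the difference was 3.84 with an SE of 0.31, or 14.3-fold. WT replicate 2 lay under the highest control probe set of its own array and WT replicate 1 above it, so the WT level was barely measurable. Leaving out WT replicate 2 gave a difference of 3.26, and leaving out WT replicate 1 gave 4.42. Calcoco2 lies on chromosome 11 in the GRCm38.p6 annotation.

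The other receptors lay close together in both genotypes. Sqstm1 (p62), which gathers ubiquitinated proteins into bodies that autophagosomes take up, had signals of 3470 and 3186 in Suz12KO and 3123 and 3310 in WT in its bright probe set 1450957_a_at. The arrays of the genotypes interleaved, and the log2 difference was 0.05 (SE 0.09). Its other probe set, 1444021_at, had signals of 111 and 67.8 in Suz12KO and 82.5 and 108 in WT, under the control probe sets in every array. Nbr1, a partner of Sqstm1 with a similar domain layout that also serves peroxisomes, had signals of 2134 and 2512 in Suz12KO and 1875 and 1930 in WT in probe set 1448343_a_at. Both Suz12KO arrays were above both WT arrays there, with a log2 difference of 0.28 (SE 0.11). In its second probe set, 1451897_a_at, the signals were 1008 and 1425 in Suz12KO and 854 and 1066 in WT, so the genotypes overlapped.

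Tax1bp1 and Calcoco1 are paralogs of Calcoco2 and share its coiled-coil architecture. Tax1bp1, a receptor for ubiquitinated aggregates, had signals of 2653 and 2037 in Suz12KO and 2148 and 1716 in WT in its brightest probe set 1448399_at, a log2 difference of 0.27 (SE 0.15) with overlapping arrays. A second probe set, 1420174_s_at, also overlapped, at 494 and 644 in Suz12KO and 431 and 628 in WT. The other Tax1bp1 probe sets were dim. In 1442901_at all 4 arrays were under their control probe sets, and in 1420175_at only Suz12KO replicate 2 was above, at 235. Calcoco1, known as a receptor for endoplasmic reticulum and as a nuclear receptor coactivator, had signals of 643 and 730 in Suz12KO and 692 and 666 in WT in probe set 1428513_at. These overlapped, with a log2 difference of 0.01 (SE 0.19). Its dimmer probe set 1443121_at read 282 and 296 in Suz12KO and 207 and 144 in WT, which did not overlap. WT replicate 2 was under the highest control probe set of its array there. The log2 difference was 0.69 with a wide SE of 0.42, so a disagreement between the probe sets of Calcoco1 is not shown. The paralogs of Calcoco2 thus showed no difference near its size in any bright probe set.

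**Figure D1:**
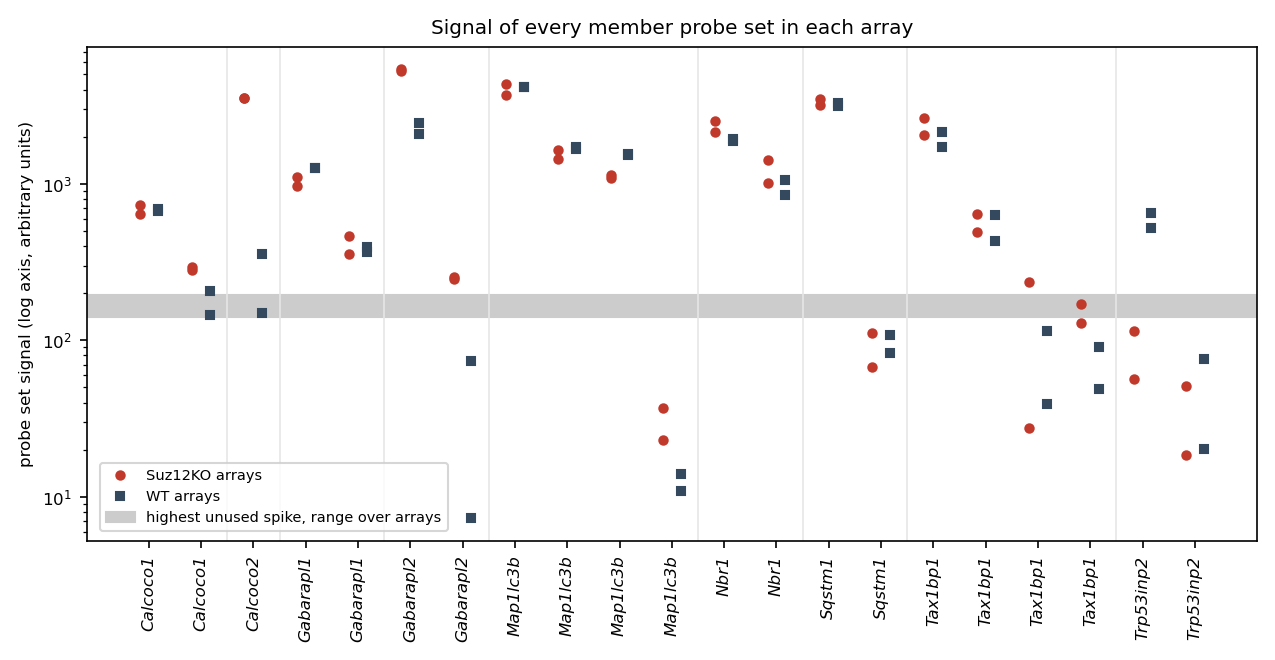
Signal of each of the 21 probe sets of the 9 genes in each array (log axis, arbitrary units), with Suz12KO arrays as circles and WT arrays as squares to their right. The grey band spans the highest bacterial control probe set of the 4 arrays, 141 to 195. Calcoco2 and both Gabarapl2 probe sets have their Suz12KO arrays well above their WT arrays, and the brighter Trp53inp2 probe set has its Suz12KO arrays under the band and far below WT.

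Among the Atg8 proteins that the receptors bind, Gabarapl2 was the member with a clear difference. Gabarapl2 (GATE-16), which acts late in autophagosome formation and in Golgi traffic, had signals of 5261 and 5384 in Suz12KO and 2444 and 2097 in WT in probe set 1423187_at. Both Suz12KO arrays were above both WT arrays, with means of 5323 ± 87.1 in Suz12KO and 2271 ± 245 in WT (SD, n = 2 each). The log2 difference was 1.23 with an SE of 0.09, or 2.34-fold. Its second probe set, 1441376_at, ran the same way, at 247 and 253 in Suz12KO against 73.5 and 7.28 in WT. Both WT arrays were under their control probe sets there, so the ratio is only bounded, at least 1.47-fold higher in Suz12KO. Bounds of this kind set the mean of the measured genotype against the highest control probe set in each array of the other, on the same log2 scale.

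Gabarapl1 and Map1lc3b differed little, and in the bright probe sets whose arrays did not overlap they were lower in Suz12KO. Gabarapl1, an Atg8 protein often induced under stress, had signals of 972 and 1105 in Suz12KO and 1260 and 1260 in WT in probe set 1416419_s_at, a log2 difference of -0.28 (SE 0.14). In its dimmer probe set, 1416418_at, the arrays overlapped, at 354 and 461 in Suz12KO and 369 and 394 in WT. Map1lc3b (LC3B), the protein most used to mark autophagosomes, had 3 bright probe sets. The brightest, 1415930_a_at, overlapped at 4314 and 3716 in Suz12KO and 4187 and 4184 in WT, with a log2 difference of -0.06 (SE 0.09). In 1415928_a_at the signals were 1137 and 1095 in Suz12KO and 1558 and 1539 in WT, both Suz12KO arrays lower, with a log2 difference of -0.47 (SE 0.13). In 1415929_at they were 1449 and 1637 in Suz12KO and 1673 and 1724 in WT, a log2 difference of -0.14 (SE 0.12). The Map1lc3b probe sets therefore differed from each other in size of difference, and which transcript ends each one reads is not given in the files. Its remaining probe set, 1428024_at, read 23.0 and 37.0 in Suz12KO and 14.0 and 10.9 in WT, under the control probe sets in every array.

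Trp53inp2 (also called DOR), an adaptor that shuttles from the nucleus to autophagosomes and binds Atg8 proteins and Vmp1, ran the other way. Its brighter probe set, 1452646_at, had signals of 114 and 56.5 in Suz12KO, against 650 and 522 in WT. Both Suz12KO arrays were under their control probe sets and both WT arrays were clearly above theirs. The means were 85.5 ± 41.0 in Suz12KO and 586 ± 90.2 in WT (SD, n = 2 each), and the fitted log2 difference was -2.62 (SE 0.46). Since Suz12KO has no measurable level, the ratio is a bound, at least 2.99-fold lower in Suz12KO. The second probe set, 1444396_at, was under the control probe sets in all 4 arrays, at 18.4 and 51.3 in Suz12KO and 20.1 and 76.4 in WT, so 1 probe set carries the whole difference. With the mean of both probe sets, the log2 difference was -1.44.

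Some fibroblast markers were lower in Suz12KO, as Trp53inp2 was. Of 13 fibroblast markers with a probe set, 9 were bright enough to test. By the limma test 6 were lower and 1 was higher in Suz12KO, and Pdgfra and Thy1 were not called. The summed signal of the 13 was 12084 to 12095 in Suz12KO and 48013 to 48676 in WT. The 6 were Acta2, Col1a1, Col1a2, Col3a1, Col5a1 and Thbs1, the 1 was Col6a2, and Acta2 gave most of the sum. Dcn, Lum, Pdgfrb and Postn were under the control probe sets in every array and were not tested. Macrophage markers, with 0 of 6 higher and 0 lower, had summed signals of 1386 to 1725 in Suz12KO and 1664 to 1800 in WT, and Ptprc and Itgam were under the control probe sets in every array. The part of other cells in the Trp53inp2 difference was not tested, and in such bulk RNA fewer cells of a type and less RNA per cell cannot be told apart.

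Across the members, 17 of the 21 probe sets were bright enough to enter the fit, with a mean level above a signal of 92.4. The others were the dim probe sets of Sqstm1, Map1lc3b, Trp53inp2 and Tax1bp1 (1420175_at). Of the 17, the dim Gabarapl2 probe set and Tax1bp1 1442901_at passed that filter only through their Suz12KO arrays, and Trp53inp2 1452646_at only through its WT arrays, so a difference was built into their passing. At an adjusted p under 0.05 in the fit across all 24461 probe sets, 2.82% of probe sets were higher in Suz12KO and 3.99% lower. The members had 2 higher, Calcoco2 and the bright Gabarapl2 probe set, and 1 lower, Trp53inp2. In the fit by gene, Trp53inp2 was no longer called when either WT array was left out, and without the variance trend in limma no member was called. In 10 of the 17 the arrays of the genotypes did not overlap, beside 50% of all tested probe sets. With 1 probe set per gene, the 9 genes had 2 higher (4.48% of 12735 tested genes) and 1 lower (5.5%), and 5 did not overlap (52.9%). Nothing is read from these counts, since the same contrast chose the genes. The median log2 difference of the 9 genes was 0.05, beside 0.04 for all tested genes. When each array was centred on its median instead, the median of all tested genes moved to -0.13 and that of the 9 genes to -0.12.

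**Figure D2:**
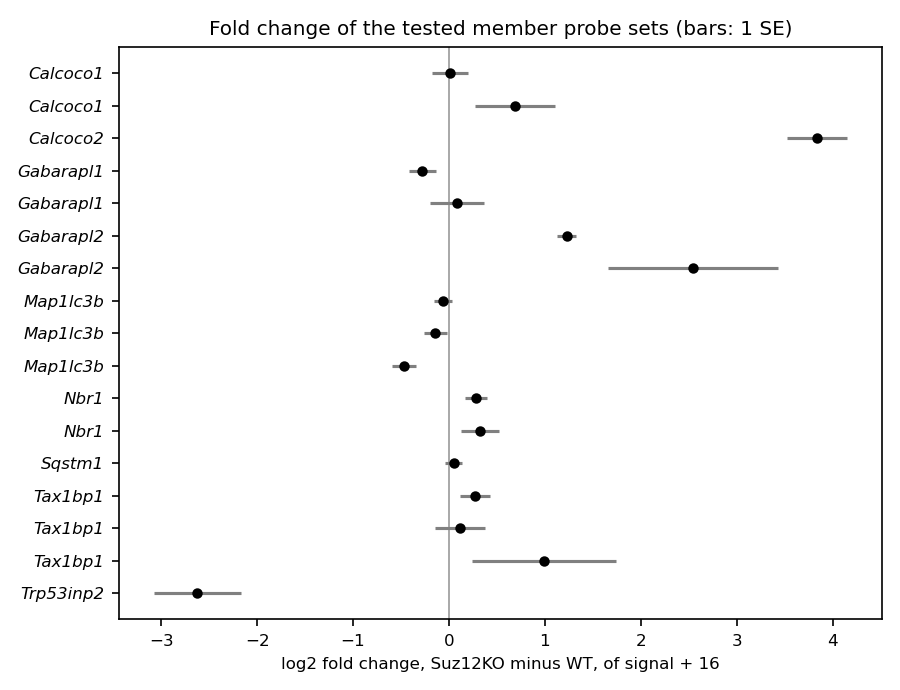
Log2 fold change, Suz12KO minus WT, of each of the 17 probe sets that entered the fit, ordered by gene name, with bars of 1 SE from limma. Calcoco2 (3.84) and both Gabarapl2 probe sets (1.23 and 2.54) lie to the right, Trp53inp2 (-2.62) lies to the left, and 11 of the 17 lie within 0.5 of 0.

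Promoter sequences are shown for Trp53inp2 and Gabarapl2, the members with the largest differences for which the RefSeq promoter table (GRCm38.p6) had an entry, to show the sequence at the start sites of an adaptor that was lower and an Atg8 gene that was higher. The table matched 9 of the 10 genes, with 11 promoters, and Calcoco2 was not among them. Each window runs from 250 bases before the start to 50 bases after it, on the plus strand, at chr2:155381606-155381905 for Trp53inp2 and chr8:111940453-111940752 for Gabarapl2. Capitals mark matches to the motifs searched, described after the sequences.
Trp53inp2: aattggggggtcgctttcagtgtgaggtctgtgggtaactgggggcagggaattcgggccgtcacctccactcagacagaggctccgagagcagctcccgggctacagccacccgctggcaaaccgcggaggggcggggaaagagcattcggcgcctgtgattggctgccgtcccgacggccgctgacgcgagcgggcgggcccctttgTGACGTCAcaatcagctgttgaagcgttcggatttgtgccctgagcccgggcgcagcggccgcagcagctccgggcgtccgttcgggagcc
Gabarapl2: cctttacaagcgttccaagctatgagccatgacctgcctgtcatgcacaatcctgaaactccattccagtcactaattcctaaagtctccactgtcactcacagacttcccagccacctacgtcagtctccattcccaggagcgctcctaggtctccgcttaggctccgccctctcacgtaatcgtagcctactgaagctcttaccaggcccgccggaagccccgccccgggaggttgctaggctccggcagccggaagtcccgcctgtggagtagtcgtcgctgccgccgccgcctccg

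The letters searched, on both strands, were CACGTG, the core of the element bound by TFEB and other E-box factors, TGACGTCA, the cyclic AMP response element, and TGACNNNGC, the core of the antioxidant response element. The searches can overlap in letters they share. The first, CACGTG, was found in 7.15% of the 32851 mouse promoters of the table and in 0 of the 11 member promoters. TGACGTCA was found in 1.79% of all promoters and in 1 member promoter, that of Trp53inp2, starting 41 bases before the start site. TGACNNNGC was found in 12.4% of all promoters and in 2 member promoters, 1 of Map1lc3b and 1 of the pair of Tax1bp1 windows. The Trp53inp2 window held 30 CpG dinucleotides at 67.3% G and C, and that of Gabarapl2 held 20 at 60%, beside medians of 7 and 52.7% over all promoters. Fewer CpGs were counted in 88.3% of all promoters than in Trp53inp2, and in 73.5% than in Gabarapl2. Members with little difference ranged widely, with 34 CpGs in Map1lc3b, 31 and 16 in the Tax1bp1 windows and 23 and 19 in those of Nbr1. Sqstm1 had 20, Calcoco1 17 and Gabarapl1 12. A link of CpG content to the differences was not tested. Absence of a match says only that these letters are not in the window.

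The nearest tested genes on either side of Calcoco2 and Trp53inp2 on their chromosomes were read, since Polycomb marks can cover neighbouring genes. Genes without a probe set of their own, or too dim to test, were passed over, so silent neighbours were not seen. Beside Calcoco2 on chromosome 11, Atp5g1, a subunit of the mitochondrial ATP synthase, was the nearest tested gene before it and was higher in Suz12KO. Its signals were 6501 and 5951 in Suz12KO and 4438 and 4060 in WT (log2 difference 0.55, SE 0.08, limma adjusted p = 0.0026). The change of Atp5g1 was much smaller than the difference of Calcoco2. Ube2z, a ubiquitin-conjugating enzyme on the same side, had a log2 difference of -0.19 (limma adjusted p = 0.318). On the other side Ttll6, a tubulin glutamylase, had -0.05 (limma adjusted p = 0.957) and Hoxb9, a Hox transcription factor, had 0.73 (limma adjusted p = 0.387), with Suz12KO signals of 310 and 222 and WT signals of 144 and 158. None of these 3 passed the test.

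Beside Trp53inp2 on chromosome 2, the nearest tested gene before it was Pigu, a subunit of the enzyme that attaches GPI anchors. It had a log2 difference of -0.08 (limma adjusted p = 0.834). The next was Map1lc3a, another Atg8 gene, at 1794 and 2131 in Suz12KO and 2413 and 2325 in WT (log2 difference -0.27, limma adjusted p = 0.182). Both Suz12KO arrays of Map1lc3a were lower than both WT arrays, without passing the test. On the far side Ncoa6, a nuclear receptor coactivator, had 0.22 (limma adjusted p = 0.523). Acss2, an acetyl-CoA synthetase, read 338 and 308 in Suz12KO against 83.2 and 104 in WT, under the control probe sets, which is at least 1.88-fold higher in Suz12KO, with a limma adjusted p of 0.0763. No named neighbour of Trp53inp2 passed the test, and none was lower near the size of Trp53inp2.

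**Figure D3:**
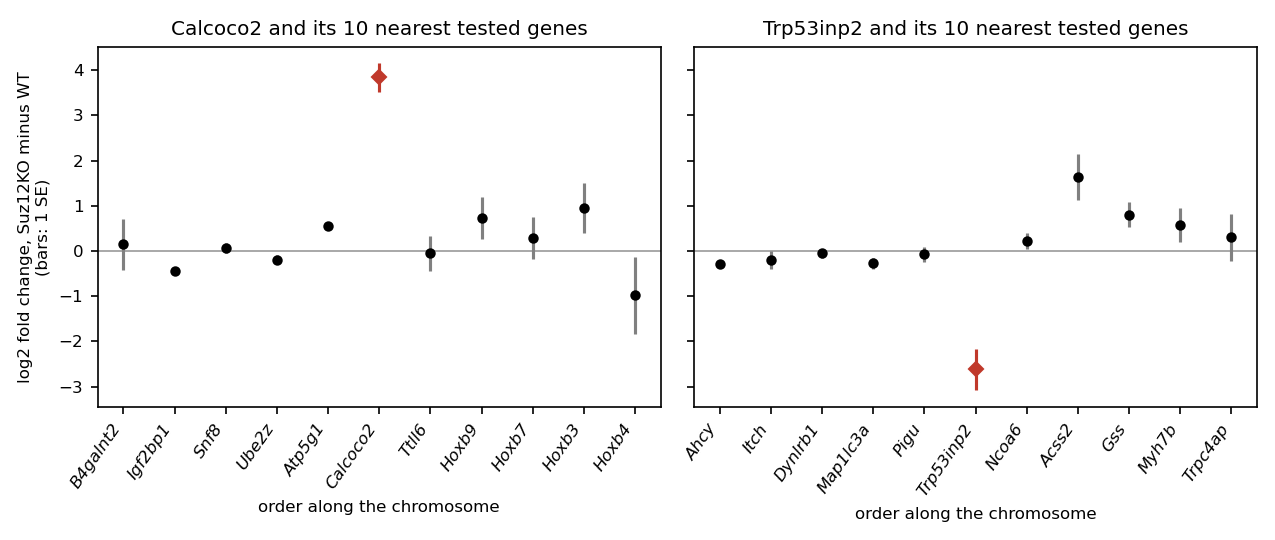
Log2 fold change, Suz12KO minus WT, with bars of 1 SE, of the tested genes nearest to Calcoco2 on chromosome 11 and to Trp53inp2 on chromosome 2, in chromosome order and not to distance. Calcoco2 (3.84) and Trp53inp2 (-2.62) each stand away from their neighbours, whose values lie between -0.98 and 1.63.

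The genes whose pattern over the 4 arrays came closest to that of Calcoco2 were measured by the root mean square distance of log2 values, each gene centred on its own mean. Closest was Rhox5, a reproductive homeobox gene, at a distance of 0.41, with signals of 5326 and 6631 in Suz12KO and 768 and 527 in WT. Aire, a regulator of self-antigen expression in the thymus, followed at 0.52, and was at least 3.45-fold higher in Suz12KO. Next were Hprt, a purine salvage enzyme, at 0.61, Oas1a, an interferon-induced enzyme, at 0.64, and Fcna, a ficolin of innate immunity, at 0.66. Hprt had signals of 6994 and 6746 in Suz12KO and 263 and 141 in WT, a log2 difference of 5.04 (SE 0.23). As with Calcoco2, WT replicate 2 of Hprt was under its control probe sets and WT replicate 1 above them. Closest to Trp53inp2 was Ror2, a Wnt receptor, at a distance of 0.19, with Suz12KO signals of 76.2 and 24.5, under the control probe sets, and WT signals of 501 and 391. It was followed by Actc1, the cardiac actin, at 0.25, Cnn1, the smooth muscle calponin, at 0.28, Cryab, a small heat shock protein, at 0.30, and Col1a1, a collagen chain, at 0.32. Since the Suz12KO signals of Trp53inp2 are under the control probe sets, as are those of Ror2 and the WT signals of Aire, Oas1a and Fcna, these distances rest in part on background readings and the order among the genes is not firm. Actc1, Cnn1, Cryab and Col1a1 had log2 differences of -2.42, -2.40, -2.62 and -2.58 in that order. With 4 arrays, any gene with a like difference between the genotypes comes close by this measure, and Col1a1 also stands in the fibroblast list above.

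Other genes of the autophagy pathway were read in lists ordered from initiation to lysosome. Of 119 listed genes, 114 had a probe set under their symbol and 109 were bright enough to test. By the limma test 8 were higher in Suz12KO, 6 were lower and 95 were not called, with a median log2 difference of 0.02. The shares called in all tested genes were the 4.48% and 5.5% given above. Leaving out 1 array at a time kept the calls of 6 of these 14 genes, namely Ulk1, Rtn3, Ctsd, Ctsl, Deptor and Foxo3. Without the trend of variance on mean level in limma, 0 of these genes, and 0 of all tested genes, were called, while 2332 of all tested genes had an unadjusted p under 0.05.

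At initiation, Ulk1, the kinase that starts autophagosome formation, rose in Suz12KO. Its signals were 2274 and 2173 in Suz12KO and 1012 and 986 in WT (log2 difference 1.14, SE 0.12, limma adjusted p = 3.19e-04). A second Ulk1 probe set had a log2 difference of 1.33. The other 4 genes of its complex were not called, and the list median was 0.11. In the class III PI3-kinase complex, which makes the lipid signal for the growing membrane, 0 of 8 genes were called. Its brightest were Becn1, the scaffold subunit, with -0.44 (limma adjusted p = 0.0643) and Nrbf2, an accessory subunit, with -0.20 (limma adjusted p = 0.493). The other Becn1 probe sets gave -0.63, -0.22, -0.10 and 0.09, all but the first with overlapping arrays, and none was called. With arrays centred on their medians, the brightest Becn1 probe set passed the test as lower (limma adjusted p = 0.0186).

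Of 10 genes for Atg9, lipid transfer and WIPI proteins, 1 rose and 1 fell. Wdr45, which binds the lipid signal on the membrane, was at 2141 and 2526 in Suz12KO and 1762 and 1400 in WT (log2 difference 0.56, SE 0.14, limma adjusted p = 0.0344). Vmp1, an endoplasmic reticulum lipid scramblase, was at 2004 and 2155 in Suz12KO and 2696 and 2947 in WT (log2 difference -0.44, SE 0.10, limma adjusted p = 0.0234). Both calls were lost without WT replicate 2. They were also lost without Suz12KO replicate 2 for Wdr45 and without Suz12KO replicate 1 for Vmp1. With 1 array left out, the log2 difference ran from 0.40 to 0.73 for Wdr45 and from -0.50 to -0.37 for Vmp1. A fit on fewer arrays measures the spread less well, so a lost call does not show that it rested on 1 array. A second Wdr45 probe set gave 0.78 and was called higher in the probe set fit (limma adjusted p = 0.0156). A second Vmp1 probe set gave 0.03. Of the 11 tested genes of Atg8 and Atg12 conjugation 0 were called, and the bright Atg8 genes Gabarap and Map1lc3a had log2 differences of -0.30 (limma adjusted p = 0.0892) and -0.27 (limma adjusted p = 0.182). Centring the arrays brought both past the test as lower, at limma adjusted p-values of 0.0188 and 0.0487, and ended the call of Wdr45 (0.39, limma adjusted p = 0.115).

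Among 14 tested receptors other than the members, 2 rose and 2 fell. Rtn3, a receptor for endoplasmic reticulum tubules, fell to 1626 and 1988 in Suz12KO, against 2728 and 2853 in WT (log2 difference -0.63, SE 0.12, limma adjusted p = 0.0091), and a second probe set gave -0.85. Tollip, a ubiquitin-binding adaptor, fell to 1023 and 1021 in Suz12KO, against 1423 and 1574 in WT (log2 difference -0.54, limma adjusted p = 0.0319), with -0.16 in a second probe set. Ncoa4, the receptor for ferritin, was at 3944 and 3912 in Suz12KO and 3161 and 3128 in WT (log2 difference 0.32, limma adjusted p = 0.0339). Phb2, an inner mitochondrial membrane protein that can serve as a mitophagy receptor, was at 9031 and 8660 in Suz12KO and 7480 and 7289 in WT (log2 difference 0.26, limma adjusted p = 0.0298). The calls of Tollip and Ncoa4 were lost without any 1 array, with adjusted p-values of 0.0661 to 0.205 and of 0.0827 to 0.147. A second Ncoa4 probe set gave 0.16 with overlapping arrays, and the other Phb2 probe sets gave 0.24, 0.09 and -0.23. With arrays centred on their medians, Ncoa4 was at 0.15 and Phb2 at 0.09, and neither was called (limma adjusted p = 0.357 and 0.515). The call of Phb2 was also lost when either WT array or Suz12KO replicate 1 was left out (0.0933 to 0.158). No receptor in that list that passed the test differed near as much as Calcoco2 did.

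Of the 13 tested partners and kinases of the receptors, 1 rose. Tnip1, a ubiquitin-binding inhibitor of inflammatory signalling, was at 1443 and 1539 in Suz12KO and 962 and 957 in WT (log2 difference 0.63, SE 0.13, limma adjusted p = 0.0165). Leaving out either WT array or Suz12KO replicate 2 ended the call, with adjusted p-values of 0.0601 to 0.0693, as did centring the arrays (0.46, limma adjusted p = 0.0683). For fusion of autophagosome and lysosome, 0 of 14 genes were called. The brightest, Rab7, a small GTPase of late endosomes, and Ykt6, a membrane fusion protein, had log2 differences of -0.10 (limma adjusted p = 0.528) and -0.16 (limma adjusted p = 0.332).

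In the lysosome and TFEB family list, 1 of 19 tested genes rose and 2 fell. The proteases Ctsd and Ctsl fell. Ctsl was at 5696 and 6013 in Suz12KO and 8167 and 8567 in WT (log2 difference -0.51, SE 0.07, limma adjusted p = 0.0013). Ctsd was at 3443 and 3827 in Suz12KO and 4997 and 4966 in WT (log2 difference -0.45, SE 0.08, limma adjusted p = 0.0075). Ctsa, a carboxypeptidase that protects other lysosomal enzymes, rose, at 909 and 1149 in Suz12KO and 588 and 665 in WT (log2 difference 0.70, SE 0.19, limma adjusted p = 0.0484). That last call ended when either WT array or Suz12KO replicate 2 was left out (0.0931 to 0.188) and with centred arrays (0.53, limma adjusted p = 0.123).

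Among 15 genes that control autophagy through mTORC1, AMPK and FoxO factors, 2 rose and 1 fell. Foxo3, a transcription factor that activates autophagy genes, was at 2586 and 2889 in Suz12KO and 1394 and 1610 in WT (log2 difference 0.86, SE 0.12, limma adjusted p = 0.0016), but a second probe set gave 0.09. Deptor, an inhibitor of mTOR, was at 1158 and 1211 in Suz12KO and 321 and 573 in WT (log2 difference 1.43, SE 0.26, limma adjusted p = 0.0080). The other Deptor probe sets that were above the control probe sets in at least 1 array of each genotype gave 0.63, 0.20 and -0.19. A further one, 1419963_at, with both WT arrays under the control probe sets, gave 1.48 with an SE of 0.81. With the mean of all probe sets of the gene, Deptor was at 0.68 and Foxo3 at 0.07, and neither was called. These means include probe sets too dim to test. Foxo3 1450236_at (-0.75) had both Suz12KO arrays under the control probe sets, and Deptor 1459719_at was under them in every array. Ddit4, a stress-induced inhibitor of mTORC1, was at 1803 and 2190 in Suz12KO and 2722 and 2968 in WT (log2 difference -0.51, SE 0.12, limma adjusted p = 0.0234). Its call was lost without WT replicate 2 (0.131) and without Suz12KO replicate 1 (0.0914).

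**Figure D4:**
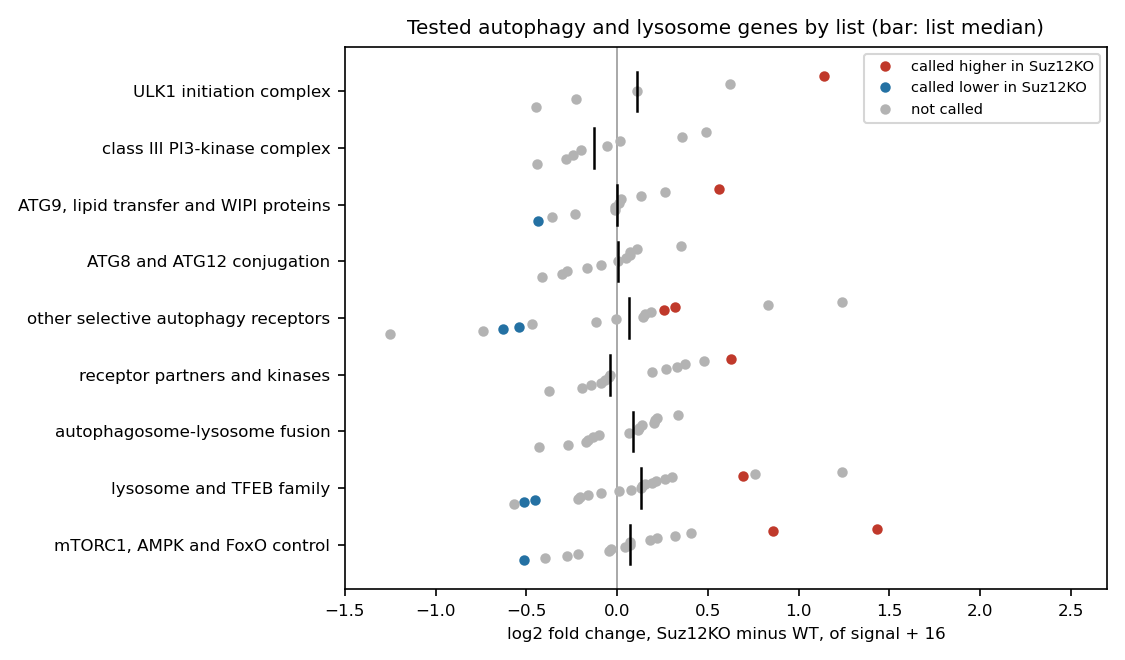
Log2 fold change, Suz12KO minus WT, of the 109 tested genes in the pathway lists, 1 point per gene and a bar at each list's median, with genes called higher or lower in Suz12KO by limma coloured. List medians lie between -0.13 and 0.13, the called genes run from -0.63 (Rtn3) to 1.43 (Deptor), and 95 genes were not called.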

How the data were processed

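The deposited value table holds 1 signal per probe set and array, an intensity on a linear scale. Per the labels' protocols, RNA of 3 clones per genotype was pooled and biotin-labelled for Affymetrix arrays. The authors had scaled each array to a common mean, since the deposited signal averaged 500.003 in every array once 2% of values were trimmed at each end. Which software summarised the probes is not stated in the labels. Because the scaling sets the mean of each array, a shift common to most genes is not measurable. The number of arrays limits the precision of every value.

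Groups came from the sample titles. Of 45101 probe sets, 34945 had 1 gene symbol in the platform annotation and were used. Values were transformed as log2(signal + 16), which understates differences of dim genes. Features whose mean level fell below the 30th percentile were not tested. The difference of Suz12KO from WT was fitted with limma 3.58.1 (R 4.3.3; lmFit, then eBayes with trend). Tests were two-sided, p-values were adjusted by Benjamini-Hochberg over every feature in the fit, and the threshold was 0.05. The fit was run on 24461 probe sets and on 12735 genes, each gene represented by its brightest probe set. Standard errors of a gene's brightest probe set are from the gene fit and those of its other probe sets from the probe set fit. Scripts were tested on simulated data. Plots used matplotlib 3.10.9 (Python 3.11.15).

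The members and gene lists were chosen with earlier results of these data known. Genes named besides the members were Suz12, Hprt, in each list up to 3 of the largest rises and falls past the test or the 2 brightest genes where none passed, the 2 nearest tested genes on each side of Calcoco2 and Trp53inp2, and the 5 genes closest to each in pattern. Igf2bp1 and Ahcy are named as further neighbours past the test, and marker genes beside these for their list. Some listed genes are not reported here. The alternatives tried were other pseudocounts (1 and 64), quantile normalization, median centring, other filters, eBayes without a trend or with robust estimation, a replicate block, each array left out, averaging all probe sets of a gene, and keeping only probe sets whose ID ends in a plain _at.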

Additional observations from a re-analysis of the deposited data

How the results depend on the processing

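With 2 arrays per genotype, the counts of calls depend on how the variance is estimated and on 1 array. With arrays centred on their medians, 294 genes were higher in Suz12KO and 1243 lower, so 19.1% of calls were higher in place of 44.9%. The same setting gave 364 and 1660 probe sets, and 3 and 11 autophagy genes. Without a trend, limma called 0 genes, 0 probe sets and 0 autophagy genes in either direction, with 2332 genes and 3673 probe sets at an unadjusted p under 0.05. With all probe sets of a gene averaged, 305 genes were higher and 306 lower, and 3 and 2 autophagy genes. Autophagy genes numbered 5 higher with no filter on dim genes, and 3 higher and 3 lower with only probe sets whose ID ends in a plain _at.

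Leaving out 1 array gave 391 to 740 genes lower, 455 to 622 probe sets higher and 614 to 1093 lower, and 3 to 6 autophagy genes higher and 3 to 5 lower. It gave 407 to 460 genes higher. With 1 array left in a genotype, that array is assumed to vary like the other genotype's. Rab7 ranged from -0.21 to 0.0062 and turned its sign without Suz12KO replicate 2, within overlapping arrays.

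Deviations of same-numbered arrays from their group means correlated at 0.015 across genes, so no deviation common to same-numbered arrays was seen. With so few arrays this cannot show that they were unpaired. With the replicate number as a block, 1016 genes were higher and 1082 lower, and 1205 and 1531 probe sets.

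Calcoco2 ran from 3.26 to 4.42 over all settings. Trp53inp2 had a log2 difference of -2.14 with a pseudocount of 64 and -1.44 with the mean of its probe sets, and -3.05 to -2.20 with 1 array left out. Gabarapl2 had 1.06 with centred arrays, 1.89 with the mean of its probe sets and 1.12 to 1.34 with 1 array left out. Sqstm1 and Calcoco1 turned below 0 with centred arrays, at -0.12 and -0.16. The cause of these changes was not tested. Signals near the control probe sets limit what can be said of Trp53inp2 in Suz12KO and of Calcoco2 in WT.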
